A study of Mus musculus with 2 samples.

Results

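Keratin transcripts were examined in KPR- and KPR_restored cells, which are mouse lung cancer cells before and after restoration of the transcription factor gene Runx3. The 10 keratin genes described here (Krt5, Krt7, Krt8, Krt14, Krt15, Krt17, Krt18, Krt19, Krt20 and Krt80) were chosen by gene symbol as simple epithelial and basal keratins, and all 10 were found among the 23183 genes of each library. The KPR- line is immortalized and comes from KPR L/F lung cancers that had seen no tamoxifen. In both libraries the cells carry K-Ras LSL-G12D/+ activated by adenoviral Cre driven by a CMV promoter, and p53 flox/flox deleted by the same Cre. They also carry Runx3 flox/FSF, with the flox allele deleted by that Cre, a Tomato reporter and Flp ERT2. The FSF allele of Runx3 holds a Frt-Stop-Frt cassette, which Flp ERT2 cuts out once 4-OHT, a tamoxifen metabolite, activates this recombinase. The labels give the genotypes as RUNX3 -/- for KPR- (0 h) and RUNX3 -/+ for KPR_restored (16 h), and they list 1 μM 4-OHT for both. Each condition is 1 poly(A) library of a cultured line, so no difference could be set against a spread between cultures, and no p-value is given. Restoration of Runx3, exposure to 4-OHT and hours in culture cannot be told apart in this design, nor can fewer cells of a kind from less RNA per cell.

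Keratins are the intermediate filament proteins of epithelial cells, and each filament is built from pairs of a type I and a type II chain in equal amounts. Simple epithelia, such as the lining of air sacs and ducts, use mainly Krt8 (type II) with Krt18 and Krt19 (type I), often together with Krt7 (type II). Stratified epithelia and airway basal cells use Krt5 (type II) with Krt14 and Krt15 (type I), and Krt17, Krt16 and Krt6a are known from wounded or hyperproliferative epithelium. Pathologists use keratin patterns to tell apart the origins of carcinomas.

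Values are FPKM, fragments scaled to transcript length and library size, and so can be compared between genes. Differences are log2(FPKM + 0.005) in KPR_restored minus KPR-, read against 0.5 either way. From the steps of low FPKM values, about 21.8 M fragments stood behind KPR- and 22.4 M behind KPR_restored. Fragments per gene were estimated from these depths, and the 95% intervals (exact Clopper-Pearson) computed from them set 1 library against the other and hold no error beyond that of counting. The targeted gene, Runx3 (chromosome 4 of GRCm38, 135120652 to 135177990, plus strand), had 0.348 FPKM in KPR- and 0.349 FPKM in KPR_restored, a log2 difference of 0.0074 (interval, -0.79 to 0.81). These values rested on about 28 and 29 fragments and showed no rise of Runx3 RNA in KPR_restored, so they do not check the labels. FPKM is summed over the gene and does not separate the alleles. Why the value was level was not tested. Directions are therefore those of the library labelled KPR_restored relative to the library labelled KPR-.

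The cell type labels give lung cancer. General epithelial markers were expressed, beside some genes of mesenchymal cells (Fn1, Zeb1 and Twist1, and Vim as given below). The markers of lung cell types were mixed, with Aqp5 high and surfactant genes below 1 FPKM. Epcam had 105 and 91.6 FPKM, Cdh1 119 and 130 FPKM, Cldn3 211 and 248 FPKM, and Cldn4 107 and 202 FPKM in KPR- and KPR_restored. Aqp5, a water channel of alveolar type I cells, had 146 and 106 FPKM. Ager and Hopx, also known from alveolar type I cells, were low, Ager with 0.708 and 0.920 FPKM and Hopx with 0.0891 and 0 FPKM. Foxj1, a factor of ciliated cells, had 2.78 and 0.656 FPKM. Of 16 lung epithelial markers, 8 were below 1 FPKM in both libraries, among them Nkx2-1, and Sftpc, Sftpb, Sftpa1 and Scgb1a1 were listed at 0 in both. Of 12 fibroblast markers, 8 were below 1 FPKM in both, with Fn1 at 242 and 239 FPKM, Zeb1 at 7.93 and 7.504 FPKM and Twist1 at 10.1 and 11.3 FPKM. Of 10 immune and endothelial markers 7 were below 1 FPKM in both, with sums of 6.96 and 10.2 FPKM over the list, and Cd68, Csf1r and Kdr had differences of 1.13, -1.17 and 0.89. The fibroblast list summed to 273 and 263 FPKM. Within it, Col1a1, a collagen gene, had 12.2 FPKM in KPR- and 4.21 FPKM in KPR_restored, a difference of -1.53, whereas Dcn (decorin) had 0.173 and 0.742 FPKM, a difference of 2.07 from about 6 and 26 fragments. Pdgfra, a fibroblast receptor gene, had 0.273 and 0.363 FPKM, and Lum and Thy1 were listed at 0. Over the 12 markers, 1 was higher and 5 were lower by 0.5 or more, against 13.8% and 12.9% of all 23183 genes. Apart from Col1a1, the lower ones had at most about 9 fragments in a library, with counting intervals that held 0. Of the 4 with a mean of at least 1 FPKM, 0 were higher and 1 was lower, against 12.1% and 9.29% of the 11231 genes at that level. The part of other cell types in the keratin values was not tested.

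The keratins of these cells were those of simple epithelium. Krt8, Krt18, Krt7 and Krt19 ranged from 743 to 1931 FPKM over both libraries and made up 98.2% of the summed FPKM of the 10 genes in either library. Krt20 and Krt80 followed at 20.001 to 80.2 FPKM and Krt14 at 2.49 and 3.59 FPKM, while Krt5, Krt15 and Krt17 stayed below 1 FPKM in both libraries. Between the libraries, Krt7 was 1.65-fold lower in KPR_restored, and Krt8, Krt18, Krt19, Krt20 and Krt80 differed by between -0.20 and 0.11 on the log2 scale, all within the threshold.

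**Figure D1:**
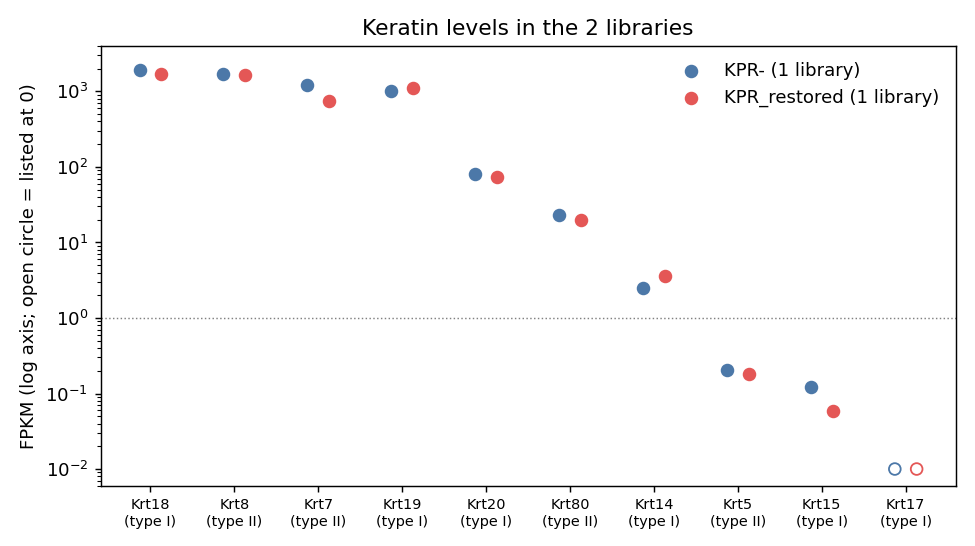
FPKM of the 10 keratins in the library of KPR- cells (blue) and of KPR_restored cells (red), 1 point per library, on a log axis, with a dotted line at 1 FPKM and open circles for a gene listed at 0. Krt18, Krt8, Krt7 and Krt19 lie between 743 and 1931 FPKM, and Krt17 is listed at 0 in both libraries.

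Krt18 and Krt8 form the basic filament pair of simple epithelia and are neighbours on chromosome 15. Krt8 lies on the minus strand from 101996698 to 102004482 and Krt18 on the plus strand from 102028180 to 102032027, with 23697 bases between them (GRCm38). Krt18 is the only type I gene of the 10 on that chromosome, where the type II genes Krt80, Krt7 and Krt5 also lie, whereas Krt20, Krt15, Krt19, Krt14 and Krt17 lie on chromosome 11. Krt18 had 1931 FPKM in KPR- and 1676 FPKM in KPR_restored, a log2 difference of -0.20 (counting interval, -0.22 to -0.19). It ranked 18 and 33 by FPKM among all genes of the respective libraries, the highest place of any keratin in both. Krt8 had 1711 FPKM in KPR- and 1631 FPKM in KPR_restored, a log2 difference of -0.069 (interval, -0.085 to -0.053). Both genes thus stood near the top of the transcriptome in both libraries and differed by less than 0.5 between them. The ratio of Krt18 to Krt8 was 1.13 in KPR- and 1.03 in KPR_restored.

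Krt7, a type II keratin of glandular and ductal epithelia, was the only one of the 4 abundant keratins to differ by more than 0.5. It lies on the plus strand of chromosome 15 from 101411043 to 101430313. Its level was 1229 FPKM in KPR- and 743 FPKM in KPR_restored, a log2 difference of -0.73 (counting interval, -0.74 to -0.71). Of all 23183 genes, 12.9% were lower by 0.5 or more in KPR_restored, and of the 835 genes with a mean of at least 100 FPKM 5.27% were. Of these 835 genes, 1.8% had a difference below that of Krt7, and 3.69% of the 11231 genes with a mean of at least 1 FPKM did. Krt7 was picked as the largest difference of the 4 abundant keratins, so these shares are no test of it. Annotated coding transcripts of Krt7 run from 642 to 4094 bases, so its estimated fragments range from 11548 to 104036 in KPR- and from 7178 to 64669 in KPR_restored, and with the fewest the interval was -0.77 to -0.68.

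Krt19, a type I keratin of simple epithelia that lacks the usual tail domain, was the only abundant keratin with a higher value in KPR_restored. It had 1015 FPKM in KPR- and 1096 FPKM in KPR_restored, a log2 difference of 0.11 (interval, 0.089 to 0.13) that did not reach 0.5. The order of the abundant keratins was therefore Krt18, Krt8, Krt7 and Krt19 in KPR- and Krt18, Krt8, Krt19 and Krt7 in KPR_restored. The ratio of Krt19 to Krt7 was 0.826 in the former and 1.47 in the latter. With 1 library each, no spread is available to say which neighbours in this order differ.

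The sequences before the starts of Krt8, Krt18 and Krt7 are shown because the first 2 carry the highest keratin levels and the third the largest difference among the abundant keratins. Each runs from 250 bases before the RefSeq transcription start to 30 bases from it (GRCm38.p6), 5′ to 3′ on the gene's strand, at chr15:102004313-102004592 (minus), chr15:102027966-102028245 (plus) and chr15:101412153-101412432 (plus). Capitals mark matches to TATAAA on the gene's strand (TATA box) or, on either strand, to GGGCGG (GC box), TGTGGT (the core letters bound by RUNX factors) or TGANTCA (AP-1). The 3 RefSeq starts lie inside the gene bounds given above, that of Krt7 farthest from the first annotated base.
Krt8: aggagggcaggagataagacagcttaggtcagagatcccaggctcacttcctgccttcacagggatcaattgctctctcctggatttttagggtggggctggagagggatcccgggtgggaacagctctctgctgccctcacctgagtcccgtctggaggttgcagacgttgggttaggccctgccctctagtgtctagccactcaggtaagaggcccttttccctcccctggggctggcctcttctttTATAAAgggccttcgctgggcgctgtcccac
Krt18: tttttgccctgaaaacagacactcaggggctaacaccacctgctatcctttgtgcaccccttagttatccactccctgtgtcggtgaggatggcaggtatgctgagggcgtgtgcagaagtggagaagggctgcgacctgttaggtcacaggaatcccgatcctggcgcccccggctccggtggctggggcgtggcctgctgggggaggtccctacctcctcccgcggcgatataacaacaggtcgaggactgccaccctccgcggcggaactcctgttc
Krt7: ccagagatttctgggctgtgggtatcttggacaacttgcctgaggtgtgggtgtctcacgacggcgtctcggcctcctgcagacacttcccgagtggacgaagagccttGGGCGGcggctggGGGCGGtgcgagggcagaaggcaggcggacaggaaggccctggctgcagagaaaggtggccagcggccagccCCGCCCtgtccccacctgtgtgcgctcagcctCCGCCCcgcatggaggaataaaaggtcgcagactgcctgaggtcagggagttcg

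The Krt8 window held a TATAAA from -1 to 5 relative to the RefSeq start (1 is its first base, with no position 0), and the Krt7 window held 4 GC boxes between -141 and -19. The Krt18 window held none of the 4 motifs. Of the 6 keratins with a window in the table (Krt5, Krt7, Krt8, Krt14, Krt18 and Krt20), Krt20 had a TATAAA from -29 to -24, and the letters TGTGGT and TGANTCA were in 0 of the 6. Among 32851 windows of the same length over all genes, TATAAA was in 8.02%, GGGCGG in 34.7%, TGTGGT in 15.6% and TGANTCA in 7.46%. The Krt7 window had 65.7% G and C, against a median of 52.5% over all windows. The Krt14 window lies inside the annotated gene, at an internal start.

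Krt20 and Krt80 were expressed at a lower level in both libraries. On chromosome 11 Krt20 lies from 99428403 to 99438150 and Krt19 from 100140810 to 100148665, and Krt80 lies on chromosome 15 from 101347444 to 101370162, all on the minus strand. Krt20, a type I keratin best known from intestinal and urothelial lining, had 80.2 FPKM in KPR- and 72.7 FPKM in KPR_restored, a log2 difference of -0.14 with an interval of -0.22 to -0.066. Krt80, a type II keratin found in many epithelia, had 22.8 FPKM in KPR- and 20.001 FPKM in KPR_restored, a log2 difference of -0.19 with an interval of -0.30 to -0.078. The counting intervals of both excluded 0, and both differences were under the threshold and inside the middle range of the 11231 genes with a mean of at least 1 FPKM, whose quartiles were -0.23 and 0.27.

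The keratins of basal and stratified epithelium were scarce. Krt15 (100131758 to 100135928), Krt14 (100203162 to 100207548) and Krt17 (100256217 to 100261029) lie on chromosome 11 and Krt5 (101707070 to 101712898) on chromosome 15, all on the minus strand. Krt14 had 2.49 FPKM in KPR- and 3.59 FPKM in KPR_restored, a log2 difference of 0.53 from about 81 and 119 fragments, with an interval of 0.096 to 0.94. Its type II partner Krt5 had 0.208 FPKM in KPR- and 0.179 FPKM in KPR_restored, a log2 difference of -0.20 from about 9 and 8 fragments, with an interval of -1.78 to 1.34. Krt15 had 0.121 FPKM in KPR- and 0.0589 FPKM in KPR_restored, and the log2 difference of -0.98 rested on about 4 and 2 fragments, with an interval of -4.51 to 1.76. Krt17 was listed at 0 in both libraries. Krt14 was thus the only one of the 4 above 1 FPKM. With a pseudocount of 1 in place of 0.005 the difference of Krt14 was 0.40 and that of Krt15 was -0.082, so neither passed 0.5. With both libraries scaled to the same upper quartile the difference of Krt14 was 0.49.

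**Figure D2:**
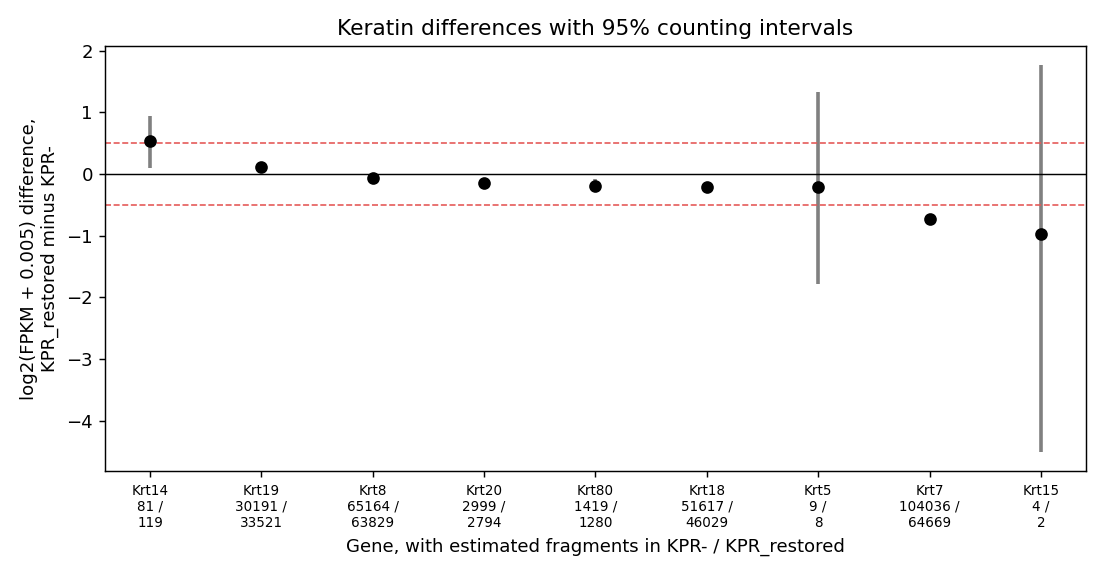
Difference of log2(FPKM + 0.005), KPR_restored minus KPR-, for the 9 keratins with a value above 0 (points), with 95% counting intervals (grey bars, mostly hidden by the points at high counts) and dashed lines at 0.5 and -0.5. The estimated fragments of both libraries stand under each gene. Krt7 at -0.73 lies below the lower line with its whole interval, while the intervals of Krt5 and Krt15 span 0.

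Of the 10 keratins, 1 (Krt14) was higher by 0.5 or more in KPR_restored and 2 (Krt7 and Krt15) were lower, against 13.8% and 12.9% of all 23183 genes. By 1 or more, 0 were higher and 0 lower, against 7.01% and 6.59%. In all, 7 of the 10 had a value below 0, 2 had a value above 0 and Krt17 was listed at 0 in both libraries. The median difference was -0.16 over the 10 genes and 0 over all genes. Over the 7 keratins with a mean of at least 1 FPKM it was -0.14, beside 0.0086 over the 11231 genes at that level. The counting intervals of all 7 excluded 0, which at high counts holds even for a difference as small as the -0.069 of Krt8. The shares of all genes with such an interval or with a value below 0 were not computed. Of these 7, 1 was higher and 1 lower by 0.5 or more, against 12.1% and 9.29% of the genes at that level, and by 1 or more 0 were either, against 2.89% and 1.38%. Of the 4 abundant keratins, 0 were higher and 1 was lower by 0.5, against 7.31% and 5.27% of the 835 genes with a mean of at least 100 FPKM, and by 1 the shares of those genes were 2.75% and 0.479%.

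The balance of the chain types differed between the libraries, mainly through the single gene Krt7, and no spread between cultures is available for it. The 6 type I genes summed to 3029 FPKM in KPR- and 2849 FPKM in KPR_restored, a log2 ratio of -0.088. The 4 type II genes summed to 2963 FPKM in KPR- and 2395 FPKM in KPR_restored, a log2 ratio of -0.31. Type I transcripts therefore stood at 1.02 times the type II transcripts in KPR- and at 1.19 times in KPR_restored. Krt7 made up 41.5% of the type II sum in KPR- and 31.0% in KPR_restored, with Krt8 at 57.7% and 68.1%. The 10 genes together held 1.15% of the FPKM total of KPR- and 1.0% of that of KPR_restored.

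**Figure D3:**
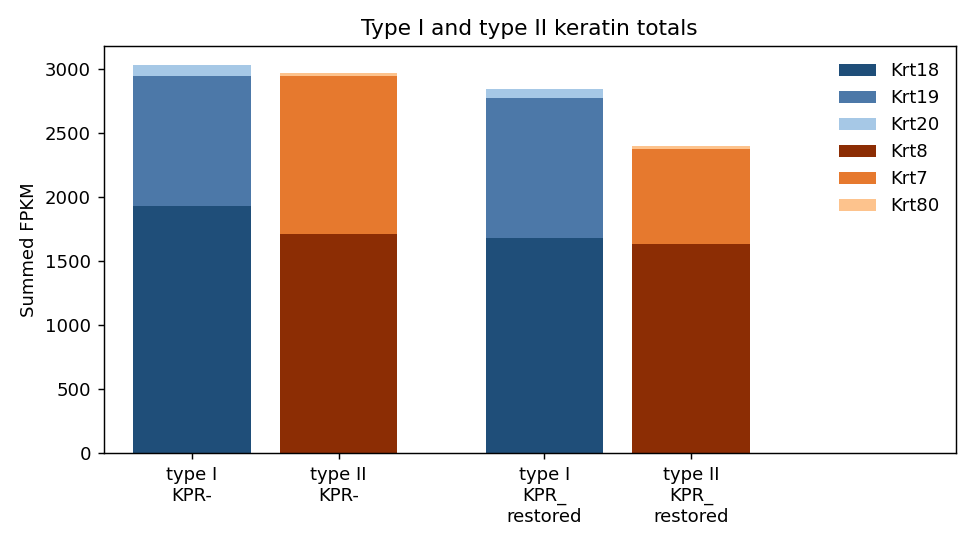
Summed FPKM of the type I (blue shades) and type II (brown shades) keratins in each library, stacked by gene, on an axis that starts at 0. Krt5, Krt14, Krt15 and Krt17 are too low to be seen and are not drawn. The bars of KPR- are close to equal in height, and in KPR_restored the type II bar is the shorter, with a smaller Krt7 segment.

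Keratins outside the 10 were mostly at or near 0 FPKM, and Krt23 had the highest level among them. Of 41 other type I and type II keratins in the files, 21 were listed at 0 in both libraries and 4 had a mean of at least 1 FPKM. Krt23, a type I keratin of glandular epithelia, had 18.4 FPKM in KPR- and 75.8 FPKM in KPR_restored, a log2 difference of 2.04 from about 544 and 2300 fragments, with an interval of 1.91 to 2.18. Krt23 was thus 4.11-fold higher, and it stood below Krt20 in KPR- and above it in KPR_restored. Krt6a, a type II keratin of wounded epithelium, had 1.23 FPKM in KPR- and 2.97 FPKM in KPR_restored, a log2 difference of 1.27 with an interval of 0.83 to 1.77. Its type I partner Krt16 had 0.303 FPKM in KPR- and 1.74 FPKM in KPR_restored, a log2 difference of 2.50 from about 9 and 53 fragments, with an interval of 1.49 to 3.72. Krt10, a type I keratin of differentiated epidermis, had 2.43 and 2.88 FPKM in the respective libraries, and its interval of -0.16 to 0.63 spanned 0. Krt16 reached a mean of 1 FPKM only through its level in KPR_restored, so no share of the 4 is set against other genes. Over all 41 genes, 9 were higher and 8 lower by 0.5 or more, against 13.8% and 12.9% of all 23183 genes. Apart from Krt23, Krt6a and Krt16, the genes past 0.5 with an estimate had at most about 20 fragments in either library, whether higher or lower. The median of both the type I and the type II genes among the 41 was 0.

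**Figure D4:**
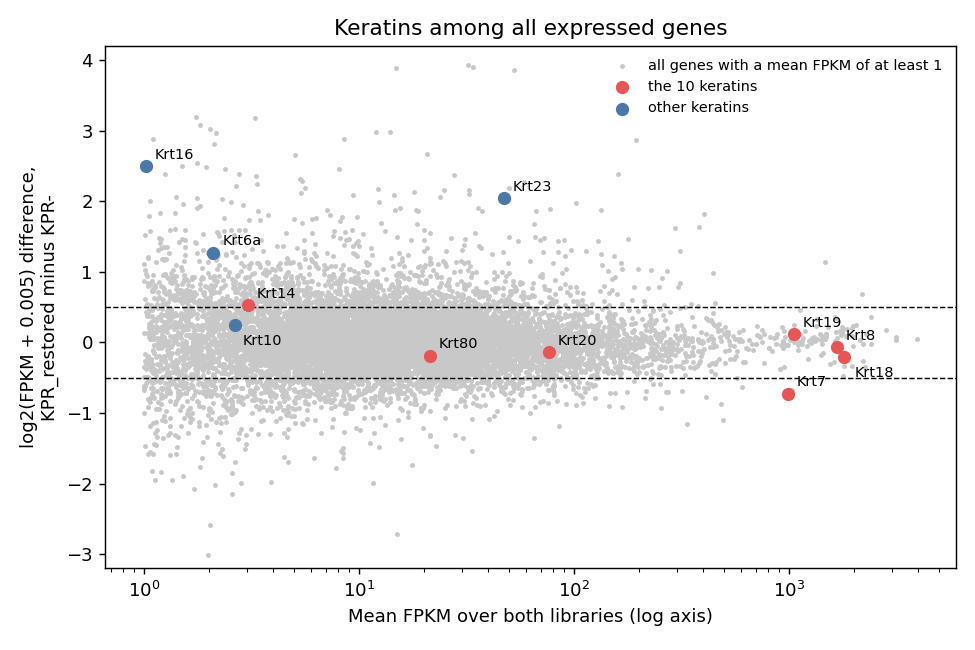
Difference of log2(FPKM + 0.005), KPR_restored minus KPR-, against mean FPKM (log axis) for all genes with a mean of at least 1 FPKM (grey), with 7 of the 10 keratins (red) and 4 other keratins (blue) named and dashed lines at 0.5 and -0.5. 22 genes lie beyond the vertical axis. Krt23, Krt16 and Krt6a lie above the upper line, and Krt7 lies below the lower line at the high end of the FPKM axis.

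Several keratin genes are close copies, and reads from shared stretches can be counted for either. Windows of 100 bases, the read length, were compared between each gene's transcript and the transcripts of all other annotated genes. For Krt7, Krt15, Krt17, Krt18, Krt19 and Krt20, 0 windows were shared. Krt8 shared 17.1% of its 1859 windows, 314 of them with its pseudogene Krt8-ps. Krt5 shared 3.81%, mostly with Krt6a, Krt14 shared 2.88%, all with Krt16, and Krt80 shared 2.46%, all with Gm35853. The values of Krt8, Krt5, Krt14 and Krt80 are therefore uncertain. Krt6a had about 55 and 138 fragments in the respective libraries, against 9 and 8 of Krt5, and the share of its fragments that came from Krt6a was not tested. Krt16 and Krt14, which share windows, both had higher values in KPR_restored. The part of shared reads in these values was not tested.

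Keratin filaments attach to desmosomes between cells and to hemidesmosomes at the basement membrane. The 10 desmosome genes with a mean of at least 1 FPKM, of 17 listed, had a median difference of -0.33, with 2 lower and 0 higher by 0.5 or more, against 9.29% and 12.1% of the 11231 genes at that level. Ppl, which encodes periplakin, a linker of keratins to the membrane, had 43.9 FPKM in KPR- and 24.2 FPKM in KPR_restored, a log2 difference of -0.86. Pkp4, a plakophilin family gene, had 31.6 and 20.7 FPKM, a difference of -0.61. Jup (plakoglobin) and Pkp1 (plakophilin 1) had positive differences of 0.27 and 0.29. The hemidesmosome list had 9 of 10 genes at that level with a median of -0.26, of which 1 was higher and 0 lower by 0.5 or more, against the same 12.1% and 9.29%. That gene was Lamb3, a laminin chain, with 48.9 FPKM in KPR- and 71.4 FPKM in KPR_restored. Plec, whose product plectin ties keratins to integrins, had 148 and 123 FPKM, and the integrin genes Itga6 and Itga3 had differences of -0.29 and -0.35. Cd151, Dst and Lama3 had differences of -0.18, -0.34 and 0.17.

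Other intermediate filament genes were present beside the keratins. Vim, which encodes vimentin of mesenchymal and many cultured cells, had 1777 FPKM in KPR- and 1464 FPKM in KPR_restored, a log2 difference of -0.28 (interval, -0.29 to -0.26). Vimentin transcripts thus stood between those of Krt18 and Krt8 in KPR-, and below both in KPR_restored. The 6 genes of this list with a mean of at least 1 FPKM, of 16, had a median of -0.26, with 2 lower and 0 higher by 0.5 or more, against 9.29% and 12.1% of the 11231 genes at that level. Both were genes of B-type lamins, Lmnb1 with a difference of -0.74 and Lmnb2 with -0.58, while Lmna had -0.070. Of 10 genes for keratin-binding or keratin-modifying proteins in the files, 0 differed by 0.5 or more either way, against 13.8% higher and 12.9% lower of all 23183 genes. Fam83h, which recruits casein kinase 1 to keratin filaments, had the highest value of these at 0.40, and Tgm2, a transglutaminase, the lowest at -0.44. Ivl (involucrin) and Eppk1 (epiplakin) had 0.33 and -0.25.

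Among 20 transcription and splicing regulators of epithelial and keratin genes, 6 were higher and 2 lower by 0.5 or more, against 13.8% and 12.9% of all 23183 genes, and the median was 0.29. The 15 with a mean of at least 1 FPKM had a median of 0.36, with 5 higher and 0 lower, against 12.1% and 9.29% of the genes at that level. Of these 5, Ovol1 was below 1 FPKM in KPR- and passed that limit only through KPR_restored. The 5 were Cebpb, Klf4, Ovol1, Gata3 and Klf5. Cebpb had 48.2 FPKM in KPR- and 132 FPKM in KPR_restored, a log2 difference of 1.45. Klf4 had 21.1 and 44.7 FPKM, a difference of 1.08. Among the 15, the most negative values were those of Cebpa (-0.20) and Grhl2 (-0.19). Below that limit, Grhl1 was the remaining higher gene, with 0.589 FPKM in KPR- and 1.17 FPKM in KPR_restored. Its difference was 0.98, with an interval of 0.43 to 1.55. Also below it, Grhl3 and Ovol2 were the 2 lower genes, with differences of -0.79 and -0.69 and counting intervals that spanned 0. Ovol2 had 1.19 FPKM in KPR- and 0.740 FPKM in KPR_restored, so it missed the limit only through KPR_restored. The counts of 5 higher and 0 lower thus depend in part on the filter. Trp63, which encodes the basal cell factor p63, was listed at 0 in both libraries, as was Krt17.

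**Figure D5:**
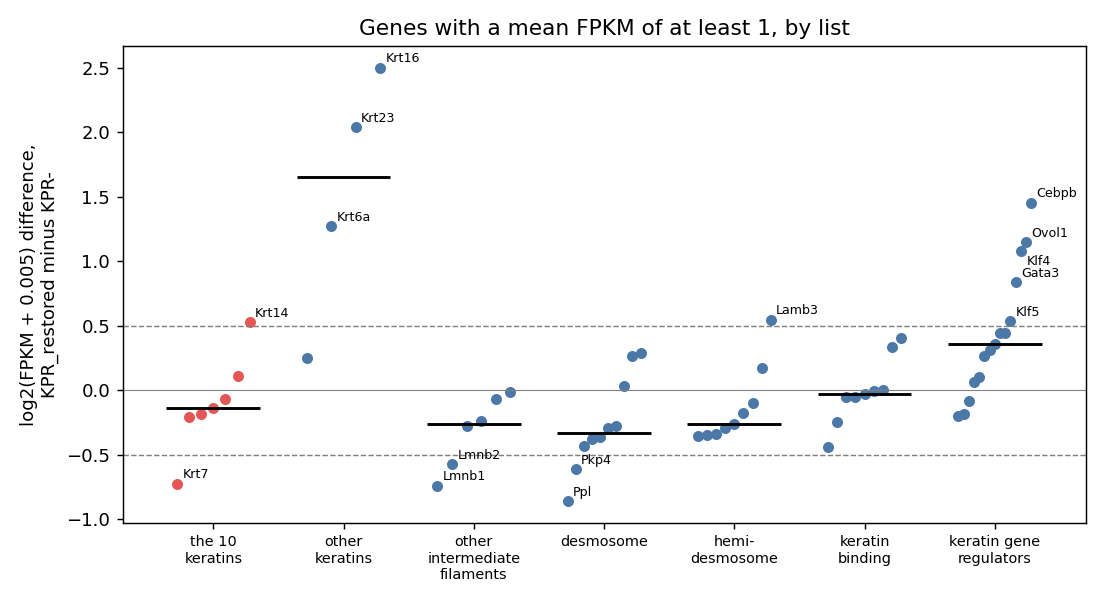
Difference of log2(FPKM + 0.005), KPR_restored minus KPR-, of the genes with a mean of at least 1 FPKM in each list, 1 point per gene in order of value, with the list's median (black line), dashed lines at 0.5 and -0.5 and names for genes past them. The medians are -0.14 for the 10 keratins' expressed members, -0.33 for the desmosome list and 0.36 for the regulators.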

How the data were processed

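mRNA was sequenced in 1 library of KPR- cells and 1 library of KPR_restored cells, grouped by the labels. From directional poly(A) libraries the authors obtained paired reads of 100 bases, which after trimming were aligned to mm10 by TopHat (per the submitters' processing notes), and they deposited 1 FPKM value from Cufflinks for each of 23183 gene symbols. Versions and annotation are not given in the sources used here.

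Here the deposited FPKM values were put on the log2(FPKM + 0.005) scale and subtracted (KPR_restored minus KPR-), with a threshold of 0.5. The added 0.005 shrinks the differences of low genes only a little. A gene with about 1 fragment in 1 library and 0 in the other can therefore pass the threshold. With 1 library per group no test was run. Depth and a mean fragment length of 212 bases were fitted to the steps of low FPKM values of 582 and 598 genes of a single transcript length (GENCODE M21, GRCm38), of which 77.8% and 79.4% gave values within 0.1 of a whole fragment. Fragments per gene used the longest transcript with a RefSeq counterpart. The fit was tested on simulated data. Promoter windows are those of RefSeq.

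The keratins, the lists and the comparisons were chosen with earlier results of these data known. Named by rule were the 10 keratins, other keratins with a mean of at least 1 FPKM, and, in each list, genes above 100 FPKM and, among those with a mean of at least 1 FPKM, the 2 most raised and the 2 most lowered by log2(FPKM + 1). Ovol1, Gata3, Klf5, Grhl1, Grhl3, Ovol2, Trp63, Dcn, Pdgfra, Lum, Thy1, Nkx2-1, Sftpc, Sftpb, Sftpa1, Scgb1a1, Ager and Hopx were named after their values were seen, and the share of genes with a mean of at least 100 FPKM was also added then. Alternatives were pseudocounts of 1 and 0.1, a filter at a mean of 1 FPKM, a threshold of 1, 3 scalings and the shortest coding transcript. Scripts ran in Python 3.11.15 with scipy 1.17.1, numpy 2.4.6, matplotlib 3.10.9 and pandas 2.3.3.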

Additional observations from a re-analysis of the deposited data

How the results depend on the processing

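The difference of Krt7 ranged from -0.76 to -0.72 over the alternatives and stayed past 0.5, whereas those of Krt14 and Krt15 fell under 0.5 under some. The 10 keratins, with 1 higher and 2 lower, gave 0 higher and 1 lower with a pseudocount of 1, 1 lower with a pseudocount of 0.1 and with the filter at a mean of 1 FPKM, 0 higher when scaled to the same upper quartile, and 0 higher and 0 lower at a threshold of 1. Over all 23183 genes a threshold of 1 gave 7.01% higher and 6.59% lower. With the filter, 12.1% of 11231 genes were higher and 9.29% lower by 0.5 or more. Shares over all genes were not computed for the other pseudocounts and the scalings. The fragments of Krt7 over both libraries were 168705, or 18726 with the shortest coding transcript. By construction, the filter removes low genes, the pseudocounts shrink their differences, and a threshold of 1 asks for a larger difference at any level, which Krt7 did not reach.

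Without a filter, 13.8% of all 23183 genes were higher and 12.9% lower by 0.5 or more. The counts higher and lower were 5 and 2 of 21 other type I keratins and 4 and 6 of 20 other type II keratins. They were 4 and 6 of 16 other intermediate filaments, 2 and 2 of 17 desmosome genes and 2 and 0 of 10 hemidesmosome genes. For keratin gene regulators they were 6 and 2 of 20, and for lung epithelial markers 1 and 3 of 16. Fibroblast markers had 1 and 5 of 12, and immune and endothelial markers 4 and 3 of 10. Many of the genes counted had a mean below 1 FPKM. Only counts that moved by more than 1.5 times or to or from 0 are given next, so the others may also have moved. For the pseudocounts of 1 and 0.1 no share over all genes was computed, so those counts are not read against other genes. With a pseudocount of 1, counts became 2 higher and 0 lower for other type I keratins, 1 and 0 for other type II keratins, 1 and 2 for other intermediate filaments, 2 and 1 for immune and endothelial markers, 0 higher for desmosomes, 1 higher for hemidesmosomes, 0 lower for keratin gene regulators, 1 lower for lung epithelial markers and 1 lower for fibroblast markers. With a pseudocount of 0.1 they became 1 higher and 2 lower for other type II keratins, 2 higher for other intermediate filaments, 1 higher for desmosomes, 1 higher for hemidesmosomes, 2 lower for fibroblast markers and 1 lower for immune and endothelial markers. With the filter they became 2 higher and 0 lower for other type I keratins (median 2.04), 1 and 0 for other type II keratins (1.27), 0 and 2 for other intermediate filaments, 2 and 1 for immune and endothelial markers (0.89), 0 higher for desmosomes (-0.33), 1 higher for hemidesmosomes, 0 lower for regulators, 1 lower for lung epithelial markers, and 0 and 1 for fibroblast markers. Of the 11231 genes that pass the filter, 12.1% were higher and 9.29% lower. The filter left 3 other type I keratins, of which Krt16 passed only through its level in KPR_restored, and 1 other type II keratin. Their medians are therefore partly set by the filter. At a threshold of 1, 7.01% of all 23183 genes were higher and 6.59% lower. The counts at this threshold became 2 lower for other intermediate filaments, 0 lower for desmosomes and 0 higher for hemidesmosomes. Regulators then had 3 higher and 0 lower, lung epithelial markers 0 higher, and immune and endothelial markers 1 lower. Centring on the median gene moved the medians of the 2 lists of other keratins, of desmosomes and of immune and endothelial markers from 0 to -0.0086.

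Leaving out a replicate was not run, since 1 library a group leaves none. No paired analysis was possible because each group has 1 library. The keratins with a mean below 1 FPKM have no value under the filter. Depth limits Krt5 and Krt15, with 9 and 4 fragments in KPR-.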
